A study of Callithrix jacchus with 4 samples.

Results

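CD44+ reactive astrocytes are described here, taken as the nuclei that the deposited annotation calls Astro in the injured marmosets, that hold at least 2000 UMIs (unique molecular identifiers, the tags that count captured transcripts) and that hold at least 1 UMI of *CD44*. This rule gave 747 nuclei of 1833 astrocyte nuclei at that depth, of 2107 astrocyte nuclei in all and of 29537 nuclei of the injured cohort. The remaining 1086 deep astrocyte nuclei, with 0 *CD44* UMIs, are called CD44-. Adult marmosets F1565, F1619 and F1711 received endothelin-1, a peptide that constricts vessels, in the primary visual cortex (V1) of the left hemisphere, and gray matter holding the lesion core and its penumbra was taken 7 days later. Each injured animal gave 1 library of nuclei from snap-frozen tissue, and nuclei of 3 uninjured marmosets were pooled into 1 control library. No genotype or other treatment is given for either group. Nuclei isolation, sorting, sequencing facility and doublet removal differed between injured and control tissue, so that the injury and these steps cannot be told apart, and every test below compares nuclei within the 3 injured animals.

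CD44 is a transmembrane glycoprotein that binds hyaluronan, a large sugar polymer of the extracellular matrix, and its cytoplasmic tail is linked to the actin cytoskeleton by proteins of the ezrin, radixin and moesin family. In the cortex it is known from astrocytes with long processes, at the pial surface and in white matter, and it is absent or low in most protoplasmic astrocytes of gray matter. After injury, astrocytes become reactive: they enlarge, rearrange their filaments, lay down matrix around the lesion and lower part of the machinery with which they clear glutamate and potassium.

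The 3 libraries held 273, 158 and 316 CD44+ and 478, 212 and 396 CD44- astrocyte nuclei in F1565, F1619 and F1711. Of all the injured nuclei, 15, 27 and 18 cell barcodes were shared by F1565 and F1619, F1565 and F1711, and F1619 and F1711, and none of these shared barcodes was of CD44+ astrocytes in both libraries. CD44+ nuclei were deeper than CD44- nuclei, with median totals of 4254, 6110.5 and 6055 UMIs against 2871.5, 5027 and 4257. With every nucleus thinned at random to 2000 UMIs, the median number of genes was 1278, 1276 and 1233 in CD44+ and 1284, 1267 and 1249 in CD44- nuclei. In all comparisons of the classes at 2000 UMIs, the classes were those set by the *CD44* UMIs before thinning. Depth therefore still took part in the split, and only the shares of nuclei with a *CD44* UMI thinned *CD44* itself. In the deposited clusters, 726 of the 747 CD44+ nuclei (97.2%) lay in cluster 18, which held 1760 of the 1833 deep astrocyte nuclei, so that most of the split ran within 1 cluster.

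The *CD44* UMIs chose these nuclei, and their number is given as a description. Summed over the CD44+ nuclei, *CD44* stood at 1014, 795 and 987 CPM (UMIs of a gene scaled by all UMIs of the sum) in F1565, F1619 and F1711. The median CD44+ nucleus held 3, 3 and 4 *CD44* UMIs, and the highest held 22, 25 and 27. The lowest number inside the limit, 1 UMI, was held by 183 nuclei (24.5%), and 253 held 2 to 4, 179 held 5 to 9 and 132 held 10 or more. Around the depth limit, 12 of the 74 astrocyte nuclei with 2000 to 2199 UMIs held a *CD44* UMI, as did 14 of the 52 with 1800 to 1999. A further 36 astrocyte nuclei with a *CD44* UMI lay below the depth limit and were left out.

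CD44+ nuclei were 36.4% (32.9 to 39.9%), 42.7% (37.6 to 47.9%) and 44.4% (40.7 to 48.1%) of deep astrocyte nuclei in F1565, F1619 and F1711, with exact (Clopper-Pearson) 95% binomial intervals that cover counting error only. Thinned to 2000 UMIs per nucleus, these shares were 30.8%, 28.4% and 32.9%. At that equal depth, a *CD44* UMI was found in 30.7% ± 2.24 of astrocytes (SD, n = 3 animals), 23.7% ± 4.78 of oligodendrocyte precursor cells (OPC) and 21.1% ± 2.64 of microglia. The shares were 7.07% ± 1.76 in oligodendrocytes, 5.52% ± 2.50 in endothelial cells, 3.00% ± 0.304 in excitatory and 2.41% ± 0.896 in inhibitory neurons. Neurons, in which *CD44* is known to be low, serve here for comparison, and the astrocyte share lay above the neuronal shares in each animal. Excitatory neurons of the control library gave 3.06% (2.53 to 3.67%) at 2000 UMIs. Whether the neuronal shares come from free RNA was not tested. The median depth before thinning was 4533 UMIs in astrocytes and 6344 in excitatory neurons, as the mean over animals. In the control library, 5 of 101 deep astrocyte nuclei held a *CD44* UMI (4.95%, 1.63 to 11.2%), and at 2000 UMIs the share was 1.98% (0.241 to 6.97%). Because those nuclei came by another protocol, the control share was not tested against the injured ones.

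**Figure D1:**
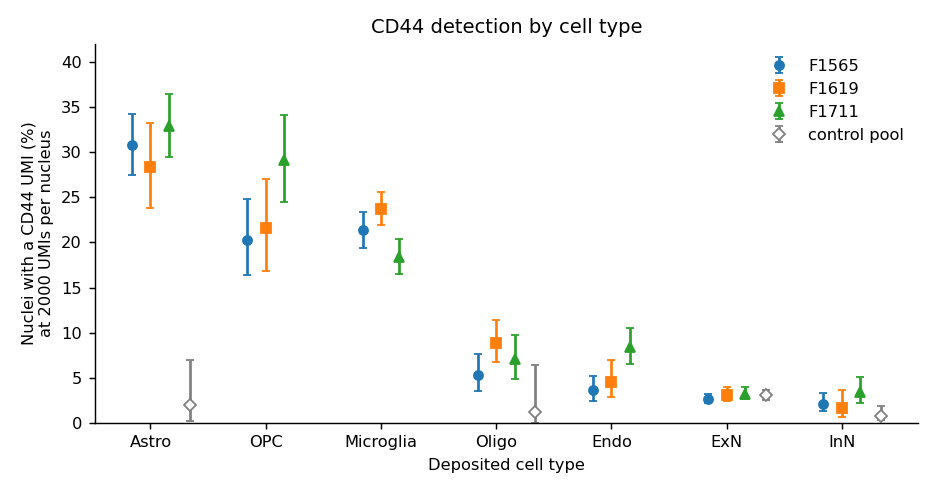
Percentage of nuclei with a *CD44* UMI (vertical axis) in each deposited cell type (horizontal axis), with every nucleus thinned to 2000 UMIs. Points are libraries, bars are exact 95% binomial intervals, and control values are drawn where at least 50 nuclei reached that depth; astrocytes of the injured animals sit between 28.4% and 32.9%.

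The label of astrocytes was checked against marker genes in both classes. The 6 astrocyte markers *SLC1A2*, *SLC1A3*, *ALDH1L1*, *GFAP*, *AQP4* and *NDRG2* were all detected in CD44+ nuclei, and together they made up 4711, 4794 and 6405 CPM in F1565, F1619 and F1711, against 11726, 10207 and 12154 in CD44- nuclei. The 5 microglial markers summed to between 189.6 and 278 CPM in CD44+ and between 203 and 296 in CD44- sums, against 2956 in microglia. The 5 oligodendrocyte markers summed to 216 to 284 and 213 to 285, against 13312 in oligodendrocytes, and the 3 OPC markers to 199 to 281 and 195 to 429, against 3477 in OPC. Endothelial (3 markers), excitatory (6) and inhibitory (5) neuron markers stood at 272 to 446, 865 to 999 and 15.8 to 27.2 CPM in CD44+, and at 283 to 398, 953 to 1248 and 21.8 to 55.0 in CD44- sums. Markers of blood macrophages and lymphocytes (5 of 6 listed) reached 32.5 to 50.3 against 34.6 to 62.7, those of fibroblasts and mural cells (6) 103 to 134 against 141 to 163, and those of ependymal cells (4) 95.1 to 141 against 99.4 to 125. *CCR2* and *CD3E*, of blood monocytes and T cells, had 0 UMIs in the CD44+ sums of F1565 and F1619 and 5 and 1 UMIs in that of F1711, where CD44- nuclei had 1 and 0. *PTPRC*, a gene of all leukocytes, was higher in CD44+ than in CD44- nuclei of each animal, at 21.7, 17.1 and 16.3 CPM against 18.1, 14.5 and 8.51. Within animals, the microglial sum was lower in CD44+ than in CD44- nuclei in all 3 (213, 278 and 189.6 against 269, 296 and 203 CPM), as was that of fibroblasts and mural cells, and the sums of the other cell types differed in both directions. The part of such RNA in the results below was not tested, apart from a fit without nuclei that held microglial markers.

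CD44+ astrocytes had lower levels of homeostatic genes than CD44- astrocytes of the same animals, with 18 of 21 called lower against 6.20% of all genes tested. They had higher levels of filament and actin linker genes (6 of 10 called higher) and of annexins and their kin (6 of 11). Part of the stress, AP-1 and hypoxia genes (8 of 15) and part of the matrix genes (9 of 26) were also called higher, against 6.05% of all genes. To ask which genes went with *CD44* in this way, UMIs were summed per animal and class, and CD44+ and CD44- sums were compared with edgeR with the animal as a block, leaving out *CD44*. A call required an adjusted p under 0.01, a change of more than 0.25 in natural log units in either direction, and detection in 10% or more of the nuclei of CD44+ or of CD44- astrocytes. Of 10256 genes tested, 620 (6.05%) were called higher and 636 (6.20%) lower in CD44+ astrocytes. The median log2 fold change of all tested genes was 0.01. The sums of the 3 animals did not overlap between classes for 28.6% of tested genes, against which the separations given below are to be read. Without the animal as a block, 263 genes were called, and DESeq2 with the block called 713. Because CD44+ nuclei were deeper, CD44- nuclei were also paired to CD44+ nuclei within 10% of their UMI total, an alternative chosen after the data were seen, which called 1170 of 9184 genes, 1057 of them also called over all nuclei. This pairing kept 211, 148 and 242 CD44+ nuclei of F1565, F1619 and F1711. It narrowed the depth difference without ending it, with medians of 3792, 6063 and 5476 UMIs in CD44+ and 3579, 5597.5 and 5037.5 in CD44- nuclei.

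**Figure D2:**
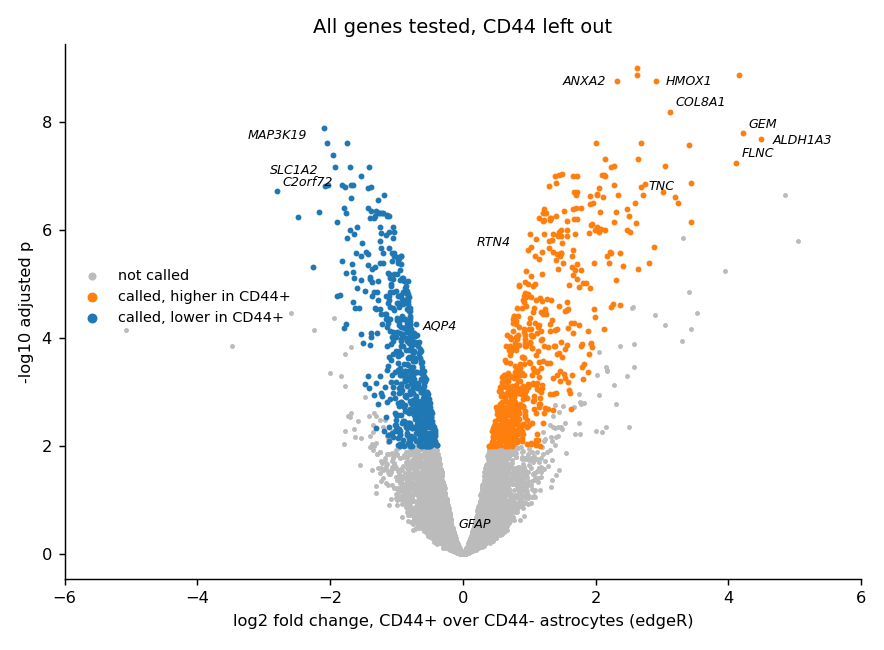
Each point is 1 of the 10256 genes tested, with the log2 fold change of CD44+ over CD44- astrocytes on the horizontal axis and −log10 of the adjusted p on the vertical axis. Called genes are colored by direction (620 higher, 636 lower), and grey points past the p limit failed the limit of 10% of nuclei or of fold change; *GFAP* lies near 0.

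The homeostatic machinery of astrocytes was lower in CD44+ nuclei. Of 21 tested genes of glutamate, potassium and water homeostasis, 18 were called lower, 0 higher and 3 were not called, with a median log2 fold change of -0.95. *SLC1A2*, the main glutamate transporter of the forebrain, stood at 1402, 1449 and 2165 CPM in CD44+ astrocytes of F1565, F1619 and F1711 and at 7283, 5250.4 and 6107 in CD44- astrocytes (log2 fold change -1.93, SE 0.14, edgeR adjusted p = 6.7e-08). Every CD44+ sum of *SLC1A2* was below every CD44- sum. *GJB6*, which encodes the gap junction protein connexin 30, fell from 134, 106 and 76.0 to 25.9, 28.2 and 20.3 (log2 fold change -2.08, SE 0.17, edgeR adjusted p = 1.5e-07). Smaller falls were found for *NDRG2* (-1.78, adjusted p = 1.6e-07), for *SLC4A4* (-1.24, adjusted p = 1.6e-06), a sodium bicarbonate cotransporter, and for *AQP4* (-0.69, adjusted p = 8.8e-05), the water channel of astrocytic endfeet. *ALDH1L1*, a folate enzyme used as a general astrocyte marker, fell by 0.72 on the log2 scale (adjusted p = 8.9e-05). *SLC1A3*, the second glial glutamate transporter, stood at 2087, 2027 and 2732 CPM in CD44+ and 2248, 2789.7 and 3918 in CD44- sums and was not called (log2 fold change -0.38, SE 0.11, edgeR adjusted p = 0.022). A *SLC1A3* UMI was present at 2000 UMIs per nucleus in 90.0% ± 2.89 of CD44+ and 96.5% ± 1.53 of CD44- nuclei (SD over 3 animals), and a *SLC1A2* UMI in 76.6% ± 9.02 of CD44+ and 95.6% ± 2.01 of CD44- nuclei.

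Of 12 tested genes that mark protoplasmic astrocytes, the common form of gray matter, 8 were called lower and 0 higher, with a median of -0.81. Of the 4 that were not called, *RYR3* (0.54) and *HPSE2* (0.21) had log2 fold changes above 0, and are named after their values were seen. The other 2 lay below 0, and 5 of the 12 are also in the homeostasis list. *LSAMP*, a cell adhesion molecule, stood at 475, 480.3 and 479 CPM in CD44+ and 1069, 950.5 and 807 in CD44- sums (log2 fold change -0.99, SE 0.11, edgeR adjusted p = 3.5e-06). All CD44+ sums of *LSAMP* lay below all CD44- sums, and *NTM*, a further adhesion molecule, fell by 0.95 on the log2 scale (adjusted p = 1.6e-05). Among 10 tested genes of fibrous and interlaminar astrocytes, 4 were called higher and 1 lower, with a median of 0.60. The 4 were *TNC*, *VIM*, *CRYAB* (2.14, adjusted p = 1.0e-07), a small heat shock protein, and *ID3* (1.31, adjusted p = 0.001), an inhibitor of DNA binding by helix-loop-helix factors, and the gene that fell was *AQP4*.

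*GFAP* and *VIM*, the intermediate filament genes by which reactive astrocytes are usually recognized, gave different calls. *GFAP* stood at 406, 487 and 591 CPM in CD44+ and at 499, 563 and 547 in CD44- astrocytes of F1565, F1619 and F1711, lower with *CD44* in F1565 and F1619 and higher in F1711 (log2 fold change -0.14, SE 0.11, edgeR adjusted p = 0.4). The classes overlapped and *GFAP* was not called. *VIM* stood at 178, 289 and 208 in CD44+ and 46.4, 100.0 and 106 in CD44- sums, without overlap (log2 fold change 1.41, SE 0.15, edgeR adjusted p = 2.7e-06). Of 10 tested genes for filaments and their links to actin, 6 were called higher and 0 lower, with a median of 0.90. Radixin (*RDX*), which ties CD44 to actin, rose from 135, 119.9 and 120.3 to 427, 324 and 325 CPM (log2 fold change 1.49, SE 0.11, edgeR adjusted p = 8.9e-08), and a *RDX* UMI was present at 2000 UMIs in 42.1% ± 9.28 of CD44+ and 18.4% ± 0.964 of CD44- nuclei. The other called members were *ACTN1* (1.23, adjusted p = 4.8e-07), an actin crosslinker, *LMNA* (1.10, adjusted p = 2.0e-05), of the nuclear lamina, *TPM4* (1.77, adjusted p = 1.4e-04), a tropomyosin, and *MSN*, moesin. Ezrin (*EZR*, 0.05), *ACTB* (0.30) and *TAGLN2* (-0.01) were not called, and are named after their values were seen.

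Of 16 listed genes that handle hyaluronan, the ligand of CD44, or are partners of CD44, 8 were tested, 2 were called higher and 0 lower, and the median was 0.34. *HYAL1*, a hyaluronidase, stood at 34.2, 52.4 and 48.3 CPM in CD44+ and 8.06, 7.27 and 7.37 in CD44- sums (log2 fold change 2.52, SE 0.25, edgeR adjusted p = 1.1e-06). *CEMIP*, which takes part in hyaluronan breakdown, stood at 33.4, 23.2 and 86.9 CPM in CD44+ and 21.5, 19.1 and 35.7 in CD44- sums (log2 fold change 0.89, SE 0.21, edgeR adjusted p = 0.0052). The classes did not overlap for *HYAL1* and overlapped for *CEMIP*. *SPP1*, or osteopontin, a secreted protein that can bind CD44, stood at 33.4, 145 and 86.4 CPM in CD44+ and 41.7, 123 and 96.4 in CD44- sums and was not called (log2 fold change -0.06, SE 0.15, edgeR adjusted p = 0.81). It was named after its values were seen.

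Matrix genes of the glial scar and integrins were called in both directions. Of 26 tested, 9 were called higher and 2 lower, with a median of 0.56. Tenascin C (*TNC*), a matrix glycoprotein of injured and developing brain, stood at 165, 279.9 and 286 CPM in CD44+ and at 6.72, 52.7 and 57.9 in CD44- astrocytes (log2 fold change 2.71, SE 0.23, edgeR adjusted p = 2.2e-07). At 2000 UMIs, *TNC* was present in 24.5% ± 4.55 of CD44+ and 6.01% ± 4.52 of CD44- nuclei. *COL4A2*, a basement membrane collagen, rose from 67.2, 66.3 and 57.9 to 230.3, 154 and 221 (log2 fold change 1.66, SE 0.15, edgeR adjusted p = 4.0e-07). *ITGB1*, the integrin subunit shared by many matrix receptors, rose from 88.0, 73.6 and 95.3 to 251, 384 and 232 (log2 fold change 1.67, SE 0.16, edgeR adjusted p = 6.1e-07), and *CHI3L1* (1.91, adjusted p = 2.3e-07), a secreted chitinase-like protein of reactive astrocytes, rose as well. Each of these 4 genes was higher in every CD44+ sum than in any CD44- sum. Brevican (*BCAN*), a proteoglycan of perineuronal and perisynaptic matrix, fell from 121, 64.5 and 69.8 to 18.4, 19.1 and 18.3 (log2 fold change -2.17, SE 0.20, edgeR adjusted p = 4.6e-07).

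The 10 largest rises among called genes that went the same way in all animals held genes of several kinds. Detection in CD44+ and CD44- nuclei was 15.1% and 1.47% for *GEM*, 17.8% and 1.01% for *FLNC* and 16.7% and 2.03% for *TNFAIP3*. These genes, and *ALDH1A3*, *FOSL1*, *COL8A1*, *RAB39A*, *IDO1* and *ENSCJAG00000004435*, passed the 10% limit through CD44+ nuclei alone. With CD44- levels as low as 1.34 CPM for *ALDH1A3*, ranks by fold change are given as a description. The order among the highest of the 10 changed with depth. *ALDH1A3*, an enzyme that makes retinoic acid, stood at 58.4, 40.3 and 85.4 CPM in CD44+ and 1.34, 2.73 and 3.97 in CD44- sums (log2 fold change 4.50, SE 0.29, edgeR adjusted p = 2.0e-08). It was detected in 11.5% of CD44+ and 0.921% of CD44- nuclei, and at 2000 UMIs per nucleus in 5.98% ± 0.820 of CD44+ and 0.564% ± 0.408 of CD44- nuclei, where it was under the detection limit of 10% and not called. Its fold change was the highest of the 10 over all nuclei, but it was 4.35 at 2000 UMIs, below *GEM* at 4.53. With pairs matched within 10% of depth it was 3.88, below *GEM* (4.59), *ENSCJAG00000004435* (4.30) and *FLNC* (4.06). *GEM*, a small GTPase, (log2 fold change 4.22, adjusted p = 1.6e-08), *FLNC* (4.12, adjusted p = 5.6e-08), or filamin C, which crosslinks actin, and the unnamed gene *ENSCJAG00000004435* (4.16, adjusted p = 1.3e-09) were also among the 10. Collagen gene *COL8A1* rose from 10.1, 13.6 and 21.6 to 69.2, 109 and 224 CPM (log2 fold change 3.12, SE 0.18, edgeR adjusted p = 6.4e-09), and *RAB39A* (3.20, adjusted p = 2.4e-07), a GTPase of vesicle traffic, rose too. Of these 10, *IDO1*, *IL7* and *TNFAIP3* take part in inflammation or its control. *IDO1*, which breaks down tryptophan and limits T cell responses, stood at 1199, 262 and 121 in CD44+ and 77.3, 71.8 and 6.24 in CD44- sums (log2 fold change 3.24, SE 0.28, edgeR adjusted p = 3.1e-07). *IL7*, a lymphocyte growth factor, stood at 1066, 210.4 and 175 CPM in CD44+ and 44.3, 62.7 and 12.5 in CD44- sums (log2 fold change 3.44, SE 0.33, edgeR adjusted p = 7.0e-07). Both were highest in CD44+ nuclei of F1565, several times above the other animals, and the classes of the 3 animals did not overlap. *TNFAIP3*, which restrains NF-kB signaling, stood at 187, 55.4 and 29.5 CPM in CD44+ and 10.1, 9.09 and 4.54 in CD44- sums (log2 fold change 3.44, SE 0.27, edgeR adjusted p = 1.3e-07). *FOSL1*, a partner of Jun in the AP-1 factor, stood at 90.9, 64.4 and 49.3 CPM in CD44+ and 8.74, 5.45 and 4.54 in CD44- sums (log2 fold change 3.41, SE 0.23, edgeR adjusted p = 2.6e-08).

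Of 15 tested stress, AP-1 and hypoxia genes, 8 were called higher and 0 lower, with a median of 0.91. Those not called were *VEGFA* (-0.45), *HILPDA* (-0.26), *SLC2A1* (0.01), *ADM* (0.05), *HSPB8* (0.13), *DNAJB1* (0.17) and *FOS* (0.30), named after their values were seen. Heme oxygenase 1 (*HMOX1*), which degrades heme, stood at 158, 349 and 239 CPM in CD44+ and at 15.5, 40.9 and 40.3 in CD44- sums (log2 fold change 2.91, SE 0.16, edgeR adjusted p = 1.7e-09). The lowest CD44+ sum was above the highest CD44- sum. The transcription factor *KLF6* rose from 83.3, 61.8 and 78.9 to 334, 211 and 198 (log2 fold change 1.67, SE 0.14, edgeR adjusted p = 1.9e-07). *ATF3* (3.02, adjusted p = 1.9e-07), a factor induced by cell stress, and *SOD2* (1.94, adjusted p = 7.5e-07), the mitochondrial superoxide dismutase, rose too, and *FOSL1* belongs to this list. Over all nuclei, *HMOX1* (35.1% of CD44+ and 9.76% of CD44- nuclei) and *ATF3* (14.6% and 2.03%) passed the 10% limit through CD44+ nuclei alone. Among annexins, S100 proteins and galectins, which bind calcium, membranes or sugars, 6 of 11 were called higher and 0 lower (median 0.68). *ANXA2*, a membrane-binding partner of actin, stood at 317, 315 and 349.6 in CD44+ and 56.4, 60.9 and 76.6 in CD44- sums (log2 fold change 2.32, SE 0.12, edgeR adjusted p = 1.7e-09), and was present at 2000 UMIs in 37.7% ± 4.51 of CD44+ and 10.4% ± 1.23 of CD44- nuclei. The others with the lowest p were *ANXA1* (1.15, adjusted p = 3.4e-06), *ANXA5* (1.16, adjusted p = 1.8e-05), *LGALS3* (1.25, adjusted p = 3.6e-05), or galectin 3, and *CD63* (0.79, adjusted p = 4.6e-04), a tetraspanin of endosomes.

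Of 7 tested pan-reactive genes, 4 were called higher and 0 lower, with a median of 1.24. *OSMR*, the receptor subunit for oncostatin M, stood at 74.3, 29.2 and 77.8 CPM in CD44+ and 15.5, 9.09 and 18.2 in CD44- sums (log2 fold change 2.07, SE 0.20, edgeR adjusted p = 9.5e-07). *SERPINA3*, a protease inhibitor, stood at 74.3, 71.5 and 190.1 CPM in CD44+ and 24.9, 42.7 and 74.3 in CD44- sums (log2 fold change 1.24, SE 0.17, edgeR adjusted p = 3.2e-05). *CXCL10*, a chemokine induced by interferon, stood at 576, 99.7 and 56.4 CPM in CD44+ and 90.7, 41.8 and 22.1 in CD44- sums (log2 fold change 1.97, SE 0.22, edgeR adjusted p = 4.0e-06). Each of these genes was higher with *CD44* in all 3 animals, but the sums of different animals overlapped for *SERPINA3* and *CXCL10*. In the same nuclei a *CXCL10* UMI was held by 40.3%, 14.6% and 11.4% of CD44+ and 14.9%, 9.43% and 8.08% of CD44- astrocytes of F1565, F1619 and F1711. At 2000 UMIs per nucleus these shares were 31.5%, 7.59% and 6.33% against 10.7%, 5.66% and 3.79%. Of the 292 deep astrocyte nuclei with a *CXCL10* UMI before thinning, 169 (57.9%) were CD44+, and these were 22.6% of the CD44+ nuclei. Of these 169, 110 were of F1565, and CD44+ nuclei were 747 of all 1833 deep astrocyte nuclei.

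For the IL-6 family receptors and STAT3, 2 of 12 tested genes were called higher (*OSMR* and *JAK2*) and 1 lower (*CNTFR*), with a median of 0.43. *JAK2*, a kinase that relays cytokine signals to STAT factors, stood at 451, 249 and 229 CPM in CD44+ and 68.5, 75.4 and 73.2 in CD44- sums (log2 fold change 2.02, SE 0.17, edgeR adjusted p = 2.1e-07). *CNTFR*, the receptor for ciliary neurotrophic factor, stood at 243, 184 and 173 CPM in CD44+ and 347, 252 and 227 in CD44- sums (log2 fold change -0.47, SE 0.11, edgeR adjusted p = 0.0038), lower with *CD44* within each animal. Of 20 tested interferon-induced genes, 9 were called higher and 0 lower, with a median of 0.43. Fewer were called by DESeq2 with the block (5 of 20), with pairs matched within 10% of depth (6 of 20) and at 2000 UMIs (6 of 18). *IRF1*, a transcription factor of the interferon gamma response, stood at 529.8, 328 and 198 CPM in CD44+ and 207, 112 and 75.4 in CD44- sums (log2 fold change 1.41, SE 0.11, edgeR adjusted p = 1.3e-07), with the highest value of each class in F1565. *MX2* (0.95, adjusted p = 5.7e-06), *IFIT1* (0.84, adjusted p = 6.2e-05) and *IFIT3* (0.64, adjusted p = 2.5e-04), antiviral effectors, also rose. In contrast *ISG15*, a ubiquitin-like modifier, stood at 215, 118 and 56.4 CPM in CD44+ and 223, 98.1 and 65.2 in CD44- sums (log2 fold change -0.02, SE 0.13, edgeR adjusted p = 0.93). It was not called, and was named after its values were seen.

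Among progenitor and Notch genes, 5 of 11 tested were called lower and 0 higher, with a median of -0.59. *NFIA*, a factor that drives astrocyte formation, stood at 727, 902 and 862 CPM in CD44+ and 1339, 1244 and 1268 in CD44- sums (log2 fold change -0.65, SE 0.11, edgeR adjusted p = 2.3e-04). Its relative *NFIB* stood at 547, 554 and 625 CPM in CD44+ and 908, 858 and 799 in CD44- sums (log2 fold change -0.59, SE 0.11, edgeR adjusted p = 6.3e-04). *SOX2* (-0.70, adjusted p = 0.0027) and *PAX6* (-0.67, adjusted p = 0.0024), factors of neural stem cells, and *FABP7* (-0.75, adjusted p = 0.0043), a fatty acid carrier of radial glia, fell as well. Among the 10 largest falls were, beside those of *SLC1A2*, *GJB6* and *BCAN*, those of *C2orf72* (-2.80, adjusted p = 1.9e-07), *SDS* (-2.48, adjusted p = 5.7e-07), a serine dehydratase, *SLC39A12* (-2.26, adjusted p = 4.8e-06), a zinc transporter, *MAP3K19* (-2.05, adjusted p = 2.4e-08), a kinase, and *AIFM3* (-2.03, adjusted p = 1.4e-07).

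Of the genes that the study followed in reactive astrocytes, 12 were tested here, with 7 called higher, 3 lower and *GFAP* and *SLC1A3* not called, for a median of 1.11. *RTN4*, the gene of NogoA, a membrane protein that inhibits neurite growth, stood at 1121, 944 and 733 CPM in CD44+ and 532, 444 and 414 in CD44- astrocytes of F1565, F1619 and F1711 (log2 fold change 0.97, SE 0.10, edgeR adjusted p = 2.3e-06). *GAP43*, a protein of growing axons that reactive glia can also make, stood at 599, 348 and 942 CPM in CD44+ and 148, 155 and 249.6 in CD44- sums (log2 fold change 1.71, SE 0.14, edgeR adjusted p = 1.9e-07). All CD44+ sums of both genes lay above all CD44- sums. At 2000 UMIs per nucleus, *RTN4* was present in 76.3% ± 5.48 of CD44+ and 55.6% ± 4.65 of CD44- nuclei, and *GAP43* in 48.3% ± 12.9 of CD44+ and 21.7% ± 3.64 of CD44- nuclei. The study picked *RTN4*, *GAP43* and *KLF6* from its own differential expression in these injured astrocytes, and used the others as pan-astrocyte or pan-reactive markers. All were followed in the same injured tissue, so that their directions are not independent evidence.

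**Figure D3:**
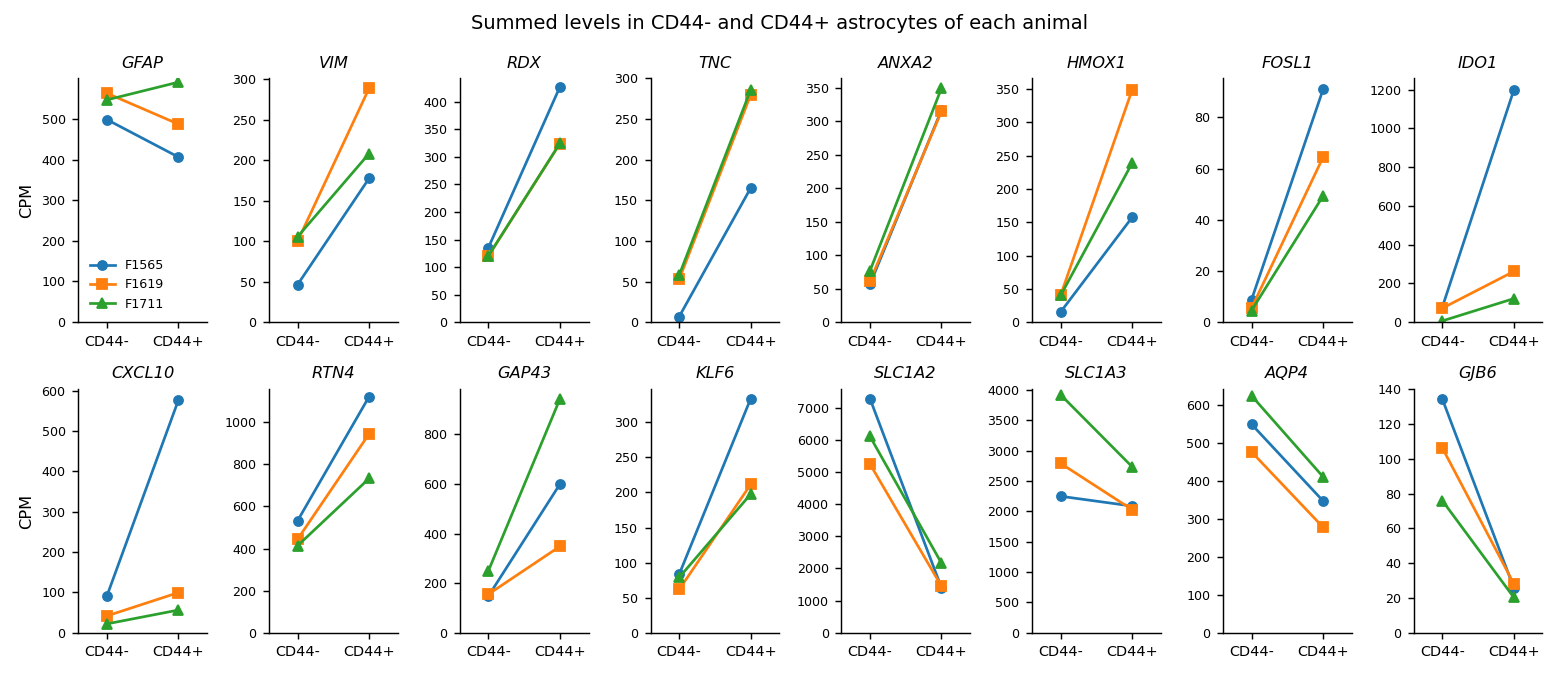
CPM (vertical axes, from 0) of 16 genes in the summed CD44- and CD44+ astrocytes of each animal (horizontal axes), with 1 line per animal. *SLC1A2* fell in all 3 animals to between 1402 and 2165, *TNC*, *ANXA2*, *HMOX1* and *RTN4* rose in all 3, and the *GFAP* lines cross.

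**Figure D4:**
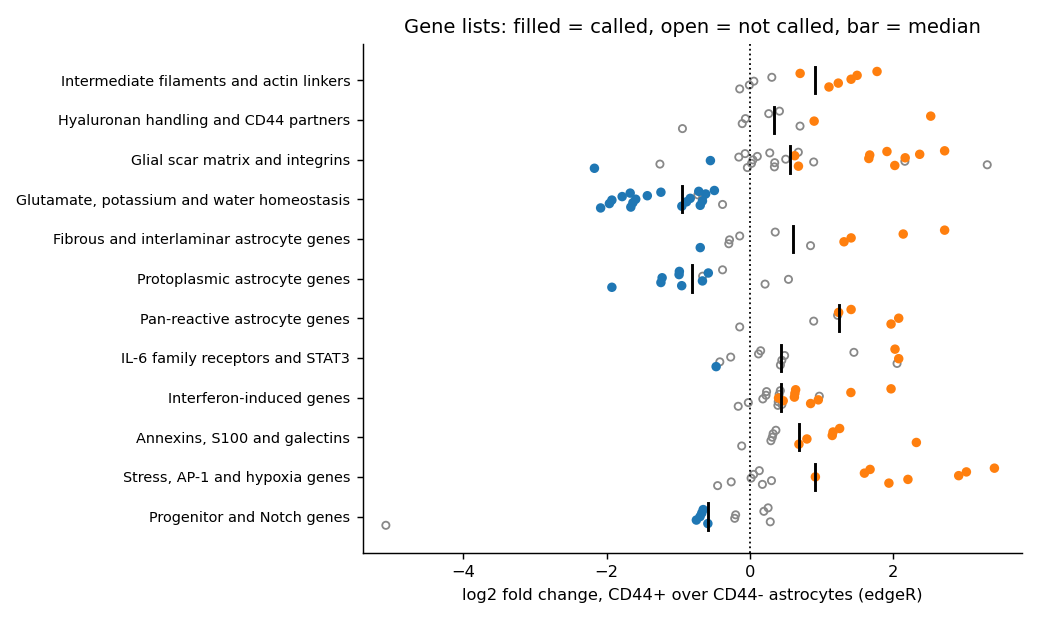
Log2 fold change (horizontal axis) of every tested gene of 12 lists (vertical axis) in CD44+ over CD44- astrocytes. Filled points were called (orange higher, blue lower), open points were not, bars mark the median of each list and the dotted line the median of all tested genes, 0.01; some genes stand in several lists.

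At 2000 UMIs per nucleus, with classes set by the *CD44* UMIs before thinning, 903 of 7904 genes were called. Of the genes named above, 10 lost their call while keeping their direction. Of these, 8 were higher in CD44+ nuclei, with log2 fold changes at this depth between 0.93 for *CEMIP* and 4.53 for *GEM*. Among them *FLNC* stood at 4.21, *ALDH1A3* at 4.35 and *ATF3* at 2.92, and *ID3*, *OSMR* and *HYAL1* between 1.41 and 2.47. They were then in 5.98% to 9.34% of CD44+ nuclei (means of 3 animals), under the detection limit of 10%. The other 2 were *PAX6* at -0.54 and *SOX2* at -0.64. *RAB39A* and *TPM4* were not tested at this depth. With pairs matched within 10% of depth, *ALDH1A3* (3.88), *PAX6* (-0.56) and *FABP7* (-0.55) lost theirs. At 2000 UMIs 5 of 14 stress, AP-1 and hypoxia genes were called higher and 3 of 10 progenitor genes lower. There edgeR called 0 of 6 tested hyaluronan genes, 2 of which had an unadjusted p below 0.05. With matched pairs 3 of 10 progenitor genes were called, and by DESeq2 2 of 11 of them and 1 of 8 hyaluronan genes. Of the matrix genes 1 was called lower under each of these 3 alternatives. Without the 139 CD44+ and 198 CD44- nuclei that held UMIs of 2 or more different microglial markers, 1023 genes were called, and *CEMIP*, *CNTFR*, *SOX2* and *FABP7* were not among them. Without the animal as a block, 32 of the 68 genes taken by the naming rule lost their call, among them *VIM*, *TNC*, *AQP4*, *CXCL10*, *GAP43* and *IDO1*. DESeq2 with the block did not call *CEMIP*, *CNTFR*, *PAX6*, *SOX2* and *FABP7*. Leaving out F1565 ended the calls of *ID3*, *CNTFR*, *PAX6*, *SOX2* and *FABP7* and called *SLC1A3* lower. Leaving out F1711 ended those of *CEMIP*, *ID3*, *CNTFR*, *PAX6* and *SOX2*, and leaving out F1619 that of *CNTFR*.

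CD44+ nuclei also differed among themselves. Nuclei with 2 or more *CD44* UMIs were compared with nuclei with 1, and of 7829 genes tested 139 (1.78%) were called higher and 231 (2.95%) lower. At 2000 UMIs 158 genes were called, without the animal as a block 6, without F1619 244, and without F1711 0 by edgeR, where 1073 of 7546 genes had an unadjusted p below 0.05. The groups at 2000 UMIs were those set by the *CD44* UMIs before thinning. Genes named from the comparison with CD44- nuclei share the CD44+ nuclei with this one. Of 20 tested homeostasis genes 13 were called lower and 0 higher (median -1.13), and at 2000 UMIs 8 of 15 were lower (median -0.75). *SLC1A2* was lower in nuclei with 2 or more UMIs (log2 fold change -1.53, adjusted p = 1.9e-09) as was *MAP3K19* (-2.08, adjusted p = 1.9e-09). Of 24 tested matrix genes 6 were higher and 0 lower (median 0.30), with *TNC* at 1.48 (adjusted p = 2.3e-06). *ALDH1A3* (4.51, adjusted p = 7.6e-08), *COL8A1* (2.89, adjusted p = 1.1e-08) and *HMOX1* (2.25, adjusted p = 1.9e-09) were higher too. Of 19 tested interferon-induced genes edgeR called 0 (3 had an unadjusted p below 0.05), with a median of 0.24, and *CXCL10* stood at 0.47 (adjusted p = 0.27). *GFAP* was not called at -0.51 (adjusted p = 0.025). Among fibrous genes 3 were called higher and 2 lower of 9 (median -0.23). At 2000 UMIs these counts were 2 and 1 of 7 (median 0.74).

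In finer steps, levels are given as descriptions, since the depth of nuclei rose with the *CD44* UMI number (medians of 2871.5, 5027 and 4257 UMIs at 0 and of 4966.5, 7700 and 7847 at 10 or more *CD44* UMIs in F1565, F1619 and F1711). With 0 *CD44* UMIs *SLC1A2* stood at 7283, 5250.4 and 6107 CPM, with 1 at 2817, 3042 and 4113, with 2 to 4 at 1169.8, 1199 and 2313, with 5 to 9 at 987, 638 and 1989.6 and with 10 or more at 963, 561 and 810.4. The level was lower at each step in all animals. *RTN4* stood at 532, 444 and 414 CPM with 0 UMIs, at 906, 626 and 595 with 1, at 1061, 821 and 640.2 with 2 to 4, at 1178, 903 and 768 with 5 to 9 and at 1523, 1529.6 and 876 with 10 or more, higher at each step in all animals, but between 2 or more and 1 UMI it was not called (log2 fold change 0.47, adjusted p = 0.027). Of the 12 tested genes that the study followed, 3 were called higher and 2 lower in that comparison. *ANXA2*, called higher there (1.18, adjusted p = 2.2e-05), went from 56.4, 60.9 and 76.6 at 0 through 228, 127 and 145 at 1 to 485, 508 and 630.1 at 10 or more *CD44* UMIs. For *GFAP* the levels were 499, 563 and 547 at 0, 540.1, 712 and 640.3 at 1 and 263, 199 and 471 at 10 or more, highest at 1 UMI in F1565 and F1619 and at 5 to 9 UMIs in F1711. *CXCL10* stood at 90.7, 41.8 and 22.1 at 0, 571, 18.7 and 47.3 at 1, 469, 71.3 and 90.3 at 2 to 4, 658, 118 and 18.9 at 5 to 9 and 761, 221 and 69.6 at 10 or more. In no animal did its level rise at every step: it was lower at the step of 2 to 4 than at 1 in F1565, at 1 than at 0 in F1619 and at 5 to 9 than at 2 to 4 in F1711.

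**Figure D5:**
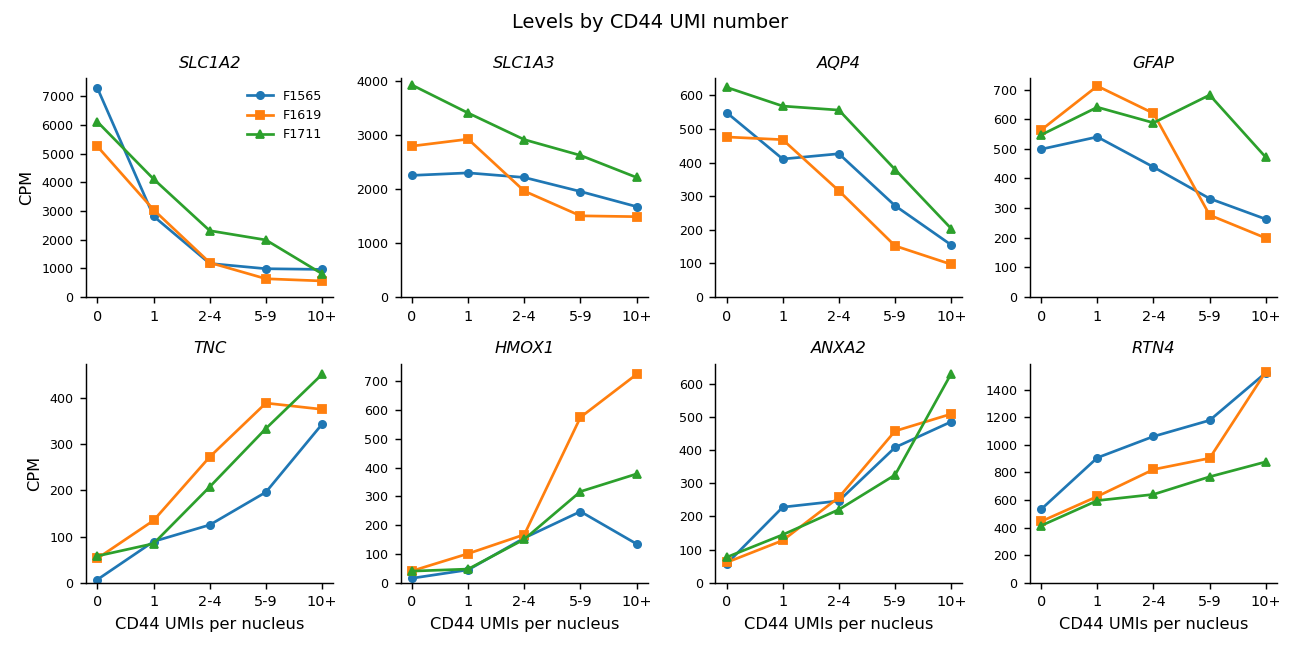
CPM (vertical axes, from 0) of 8 genes in astrocyte nuclei grouped by the number of *CD44* UMIs per nucleus (horizontal axes), with 1 line per animal. *SLC1A2* fell and *RTN4* rose at every step in all 3 animals, while *GFAP* was highest at 1 UMI in F1565 and F1619; groups hold 28 to 478 nuclei.

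The same split was made in microglia, OPC and oligodendrocytes of the injured animals, and the difference between CD44+ and CD44- nuclei was compared with that of astrocytes. Within those types, 155 genes were called higher and 97 lower in CD44+ microglia of 12355 tested, 620 and 626 in CD44+ OPC of 9270, and 71 and 117 in CD44+ oligodendrocytes of 8381. CD44+ nuclei of F1565, F1619 and F1711 numbered 504, 901 and 469 in microglia, 108, 111 and 169 in OPC and 36, 78 and 41 in oligodendrocytes. Their *CD44* UMIs numbered 875, 1754 and 813 in microglia, 302, 328 and 626 in OPC and 49, 135 and 53 in oligodendrocytes. The 273, 158 and 316 CD44+ astrocytes held 1216, 790 and 1942. On average within each animal, a CD44+ nucleus of these types thus held fewer *CD44* UMIs than a CD44+ astrocyte. The class is therefore not the same contrast in each type, and the part of this in the differences was not tested. In simulated counts, 38.4% of 2-fold differences from astrocytes were called for microglia, 29.0% for OPC and 14.4% for oligodendrocytes. Numbers of calls therefore do not rank these types by likeness to astrocytes. The effect of the *CD44* class differed from that in astrocytes for 711 of 12034 genes (5.91%) in microglia, 436 of 10599 (4.11%) in OPC and 240 of 10854 (2.21%) in oligodendrocytes (edgeR interaction, adjusted p below 0.01). These differences come from a joint fit of both cell types with its own scaling, and so need not equal the fold changes fitted within each type subtracted from each other. With F1619, F1565 or F1711 left out, these counts were 392, 452 and 446 for microglia, 179, 296 and 131 for OPC, and 60, 170 and 179 for oligodendrocytes. Against oligodendrocytes, 191 of the 240 differences were positive, that is, higher in the astrocyte contrast, but with scaling by library size alone 89 of 192 were, as the median difference over all genes went from 0.11 to -0.13. Of the 12 genes of the study, 8 differed from microglia, 3 from OPC and 3 from oligodendrocytes (2 with scaling by library size alone, where *VIM* was not past the limit). *SLC1A2* was -0.08 (log2) in CD44+ over CD44- microglia, a difference of -1.83 (adjusted p = 2.2e-05) from astrocytes, and -0.38 in OPC, a difference of -1.54 (adjusted p = 3.0e-05). *SLC1A2* is an astrocyte marker, its level in microglia and OPC is not given, and the part of free RNA in it was not tested. For *KLF6*, *GAP43* and *RTN4* the astrocyte value exceeded that of microglia by 1.63 (adjusted p = 6.9e-07), 1.80 (adjusted p = 2.8e-05) and 0.87 (adjusted p = 1.1e-05). Against OPC these genes differed by -0.11 (adjusted p = 0.85), -0.27 (adjusted p = 0.54) and 0.31 (adjusted p = 0.29), none past the limit. *GFAP*, not called in astrocytes, was higher in CD44+ than in CD44- OPC (log2 fold change 1.71), and the difference from astrocytes was -1.85 (adjusted p = 1.5e-07).

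Control astrocytes gave 101 nuclei of at least 2000 UMIs, with a median of 2532 and 320562 UMIs in all, and their levels are set beside the injured classes without a test. Intervals are exact 95% Poisson intervals for counting error. *SLC1A2* stood at 10079 CPM (9735 to 10433) in control astrocytes, above every CD44- and CD44+ sum of the injured animals. *AQP4* stood at 59.3 CPM (35.7 to 92.6), below both injured classes. *GFAP* stood at 137 CPM (99.7 to 184) and *RTN4* at 231 CPM (181 to 289.8), below both injured classes. *VIM*, *TNC* and *KLF6* had 1 UMI each, and *HMOX1*, *FOSL1*, *IDO1* and *ANXA2* had 0 of 320562 UMIs, for which the interval ends at 11.5 CPM. In CD44- astrocytes of the injured animals, *ANXA2* at 56.4, 60.9 and 76.6 was above that limit in each animal, and *FOSL1* at 8.74, 5.45 and 4.54 below it.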

How the data were processed

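Single-nuclei RNA sequencing was performed by the authors on the 10x platform, and UMIs were counted with Cell Ranger 3.1.0 on the marmoset genome calJac3. Doublets were removed from injured nuclei with Scrublet, and control nuclei were filtered on genes with Seurat. The authors deposited raw UMI counts per gene and nucleus, with a cell type for each nucleus. Counts were summed here per library and class. The sums were compared by the quasi-likelihood test (glmQLFit, glmQLFTest) of edgeR 4.0.16 under R 4.3.3, after filterByExpr and TMM scaling and with Benjamini-Hochberg adjustment over all genes tested, with the animal as a block because both classes come from each animal. CD44 was left out. Fold changes are log2, and CPM are summed UMIs of a gene scaled by all UMIs of the same sum. Shares were computed with Python 3.11.15, numpy 2.4.6, pandas 2.3.3 and scipy 1.17.1. Of 237 genes in lists and marker sets, 222 were listed in the injured table, 7 of them by Ensembl identifier. The steps were tested on simulated counts. The 3 injured libraries held 48722394, 35737777 and 42956736 UMIs (F1565, F1619 and F1711). With 3 animals, p-values rest on the spread of the paired difference between them after edgeR moderated it toward a trend over all genes tested. They therefore draw on the variance of other genes and not on the 3 animals alone.

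The class, its members and all lists were chosen with earlier results of these data known. Genes are named with values where the study followed them, where they were among up to 5 called genes of lowest p in a list, or where, of the called genes with 1 direction in all 3 animals, they had one of the 10 highest or 10 lowest fitted fold changes. Other named genes are marked as such, and some genes that the rule takes are not reported here. Alternatives were RLE factors, library size alone, no filter on low counts, DESeq2 1.42.0, no block, an adjusted p limit of 0.05, thinning to 2000 UMIs, matching by depth, at least 2 CD44 UMIs against 0, any depth, at least 4000 UMIs, leaving out nuclei with UMIs of 2 or more microglial markers, and leaving out each animal. Genome positions are not given, since no annotation of that build was used.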

Additional observations from a re-analysis of the deposited data

Results flagged for a closer look

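In the comparison of the *CD44* class between cell types, 14 differences among the 12 tested genes of the study passed the edgeR interaction test (adjusted p below 0.01) and are listed here for that reason. Each value compares the log2 fold change of CD44+ over CD44- nuclei in astrocytes with that in the other cell type, positive where astrocytes were higher, and was estimated in a joint fit of both cell types with its own scaling. It therefore need not equal the fold changes fitted within each cell type subtracted from each other. CD44+ nuclei of the other types held on average fewer *CD44* UMIs than CD44+ astrocytes, and the part of this in the differences was not tested. Against microglia, the differences were *CXCL10* 1.68 (adjusted p = 1.8e-04), *GAP43* 1.80 (adjusted p = 2.8e-05), *KLF6* 1.63 (adjusted p = 6.9e-07), *OSMR* 1.98 (adjusted p = 3.2e-04), *RTN4* 0.87 (adjusted p = 1.1e-05), *SERPINA3* 1.44 (adjusted p = 0.0048), *SLC1A2* -1.83 (adjusted p = 2.2e-05) and *VIM* 0.93 (adjusted p = 0.0022). In astrocytes 7 of these 8 genes were called higher with *CD44* and *SLC1A2* lower, and in microglia the fold changes lay between -0.18 for *SERPINA3* and 0.47 for *VIM*. Levels of these 8 genes in microglia are not given, and the part of free RNA in them was not tested. Against OPC, the differences were *GFAP* -1.85 (adjusted p = 1.5e-07), *SLC1A2* -1.54 (adjusted p = 3.0e-05) and *SLC1A3* -1.05 (adjusted p = 1.9e-04). *GFAP* and *SLC1A3* were higher in CD44+ than in CD44- OPC, by 1.71 and 0.68, where astrocytes gave -0.14 and -0.38. Against oligodendrocytes, they were *RTN4* 1.05 (adjusted p = 2.0e-04), *SERPINA3* 1.76 (adjusted p = 1.5e-04) and *VIM* 1.62 (adjusted p = 0.0021). The levels of *RTN4*, *SERPINA3* and *VIM* in CD44+ over CD44- oligodendrocytes gave log2 fold changes of 0.06, -0.40 and -0.06 when fitted alone. Subtracted from the astrocyte fold changes fitted alone, they gave 0.92, 1.63 and 1.47. Scaling by library size alone moved the median difference against oligodendrocytes from 0.11 to -0.13, and the differences became 0.82 (adjusted p = 0.0026), 1.52 (adjusted p = 0.0011) and 1.38 (adjusted p = 0.012), the last of them, of *VIM*, not past the limit. Groups of 3 animals are too small for the check on single outlying samples.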

How the results depend on the processing

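The comparison of CD44+ with CD44- astrocytes called 1256 genes. DESeq2 with the block called 713, the fit with no replicate block 263 and an adjusted p limit of 0.05 1910, of which 713, 263 and 1256 are among the 1256. The library of each animal gives both classes, which is where the pairing comes from. RLE factors, library size alone, no filter on low counts, thinning, both ways of matching by depth, at least 2 *CD44* UMIs against 0, any depth, at least 4000 UMIs and leaving out nuclei with microglial markers called 903 to 1538, and leaving out 1 animal 902 to 1114 (902 without F1565). Between nuclei with 2 or more and with 1 *CD44* UMI, thinning gave 158 calls instead of 370, no replicate block 6, and leaving out 1 animal 0 (without F1711) to 388. For the differences between cell types, leaving out 1 animal gave 392 to 452 calls against microglia, 131 to 296 against OPC and 60 to 179 against oligodendrocytes. The mean share of CD44+ nuclei of 41.1% became 30.7% at 2000 UMIs and 37.9% at any depth. For the 68 genes taken by the naming rule under 16 alternatives, 1014 values kept their direction and side of the limit, 67 kept the direction and lost the call, 5 (all of *SLC1A3*) gained it and 0 changed direction; 32 of the 67 were lost without the block. Apart from what fewer nuclei or UMIs remove, the cause was not tested. Median depths of 2871.5 to 6110.5 UMIs per nucleus mean that a nucleus with 0 *CD44* UMIs can still express it.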
